A study of Mus musculus with 13 samples.

Results

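Adipokines are proteins that fat tissue releases into the blood or acts on locally, and 9 genes for them were looked up on arrays of mouse fat: Lep, Adipoq, Retn, Agt, Apln, Rbp4, Cfd, Nampt and Rarres2. A gene entered when a probe set named it alone in the platform's annotation, with the probe set of highest mean standing for the gene. This gave 7 of the 9 genes, each with 1 probe set, of 18820 genes in all. Cfd (adipsin) was paired with 0 probe sets in that annotation, and the 1 probe set of Rarres2 (chemerin) also names Lrrc61, so neither was analysed here.

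The tissue was epididymal white fat, a visceral depot, of male mice aged 18 weeks. From the age of 6 weeks, for 12 weeks, they ate either chow, with 13% of its energy as fat, or a diet with 60% of its energy as fat. Wild-type mice were C57BL/6, and P2X7 knockout mice were P2X7-/- of the strain B6.129P2-P2rx7tm1Gab/J, with 7 generations of backcrossing to that background. Arrays numbered 3 for wild-type chow, 3 for wild-type high-fat, 3 for knockout chow and 4 for knockout high-fat mice, 13 in all. Whether arrays came from separate animals is not in the labels, and p-values therefore reflect the spread among these arrays, which may be technical. P2X7 is an ATP-gated channel, and the series asks whether it matters for inflammation in obese fat.

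Leptin, the product of Lep, tells the brain how much fat is stored, and its mRNA is known to follow fat cell size. Adiponectin (Adipoq) improves insulin sensitivity and is known to be lower in obesity, whereas resistin (Retn) and retinol-binding protein 4 (Rbp4) have been linked to insulin resistance in mice. Angiotensinogen (Agt) is the precursor of the angiotensin peptides, apelin (Apln) is a small peptide that acts on vessels and fat cells, and Nampt (visfatin) is an enzyme of NAD salvage that also occurs outside cells.

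The promoters of 4 of these genes are given first to show motif matches in Lep, which was higher on high-fat diet, and in 3 genes that were lower, Adipoq, Rbp4 and Agt. Retn, which also fell, is not shown because its window holds no match, and Nampt and Apln are not shown either. All 7 measured genes were found by Entrez ID in a RefSeq table of promoters (build GRCm38.p6), each window holding 250 bases before the annotated start and 50 after it, read 5′ to 3′ on the gene's strand. Rbp4 has 2 annotated starts, so there were 8 windows, and the one shown is the more downstream start. Capitals mark matches on either strand to CCAAT, TTGCNNAA (a C/EBP type of site), AGGTCA (bound by nuclear receptors), CACGTG, its part ACGTG, and TATAAA.
Lep, chr6:29059971-29060270, plus strand: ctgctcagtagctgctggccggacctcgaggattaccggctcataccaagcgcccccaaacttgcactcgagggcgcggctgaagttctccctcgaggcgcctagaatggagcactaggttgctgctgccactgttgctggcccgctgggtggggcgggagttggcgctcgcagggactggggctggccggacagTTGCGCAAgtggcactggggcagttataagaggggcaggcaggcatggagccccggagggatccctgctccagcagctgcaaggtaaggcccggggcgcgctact
Adipoq, chr16:23146286-23146585, plus strand: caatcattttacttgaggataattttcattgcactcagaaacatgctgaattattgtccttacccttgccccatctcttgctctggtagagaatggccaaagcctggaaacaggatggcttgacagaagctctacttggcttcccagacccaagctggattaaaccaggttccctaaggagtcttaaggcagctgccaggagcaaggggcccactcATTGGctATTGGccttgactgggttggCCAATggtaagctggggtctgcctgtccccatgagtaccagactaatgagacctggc
Rbp4, chr19:38124762-38125061, minus strand: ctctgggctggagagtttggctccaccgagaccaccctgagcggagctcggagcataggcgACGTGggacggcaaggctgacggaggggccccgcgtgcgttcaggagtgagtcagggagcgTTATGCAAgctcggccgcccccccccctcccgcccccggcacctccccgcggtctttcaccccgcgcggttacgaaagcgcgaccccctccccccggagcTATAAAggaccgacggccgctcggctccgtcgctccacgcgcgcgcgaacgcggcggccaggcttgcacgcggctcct
Agt, chr8:124569657-124569956, minus strand: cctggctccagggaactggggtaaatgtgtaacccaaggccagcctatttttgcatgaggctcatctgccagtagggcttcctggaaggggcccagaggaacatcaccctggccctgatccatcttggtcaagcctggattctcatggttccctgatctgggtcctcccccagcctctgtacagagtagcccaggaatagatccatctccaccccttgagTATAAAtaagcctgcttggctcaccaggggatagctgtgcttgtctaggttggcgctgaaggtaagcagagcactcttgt
The Lep window holds 1 TTGCNNAA match, which begins 55 bases before the start. Adipoq has 3 matches to CCAAT, beginning 34, 27 and 7 bases before the start, and no match to the other motifs. In the Rbp4 window TTGCNNAA lies 128 bases and TATAAA 28 bases before the start, and Agt has TATAAA at 30 bases. The Nampt window, not shown, holds AGGTCA at 151 bases and ACGTG at 82 bases before the start. Of the 8 windows, 2 hold CCAAT, 2 TTGCNNAA, 1 AGGTCA, 2 ACGTG, 2 TATAAA and 0 CACGTG. Among all 32851 windows in the table the shares are 37.4%, 10.8%, 16.3%, 19.6%, 13.6% and 7.15%, in the same order. A pair of AGGTCA sites 1 base apart (DR1) is in 0 of the 8 windows and in 0.0396% of all. The windows of Retn and Apln hold none of these letters, and a match or its absence says only what is written there.

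The values are log2 expression after RMA, an array normalisation, and the array medians over all probe sets lay between 5.72 and 5.88. The mean of 13 fat cell markers was 10.70 to 11.73 on every array, far above the array medians over genes (6.56 to 6.69), while the means of 7 epididymis and 7 testis markers were 3.58 to 4.06 and 3.97 to 4.16. One array stood apart within its group, the wild-type high-fat replicate 2, without which 177 genes rather than 8 passed for genotype on that diet. Transcripts of liver differed between groups as well. The mean of 16 liver markers was 6.60 to 7.52 in wild-type chow, 5.23 to 6.74 in wild-type high-fat, 5.50 to 5.62 in knockout chow and 4.99 to 5.94 in knockout high-fat arrays, and Alb, the most abundant of them, read at least 7.54 on every array. P2rx7 itself read 7.91 to 8.41 in wild-type and 7.90 to 8.23 in knockout mice on chow, and 9.36 to 9.69 and 8.90 to 9.14 on high-fat diet. The position of its probe set relative to the mutation was not analysed here, so these values check nothing about the labels.

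The effect of diet came first. With high-fat diet 1 measured adipokine rose and 5 fell in wild-type mice, and 1 rose and 5 fell in knockout mice, by limma at a Benjamini-Hochberg adjusted p under 0.05. These counts stand against 35.8% of all genes that passed in wild-type and 34.2% in knockout mice. The share of genes that fell was 18.1% in wild-type and 19.7% in knockout mice, and the share that rose 17.7% and 14.5%. The diets did not overlap within a genotype, in either direction, for 43.3% of all genes in wild-type and 43% in knockout mice. The median log2 change over the 7 adipokines was -0.71 in wild-type and -0.93 in knockout mice, beside -0.03 and -0.06 over all genes. With arrays centred on their medians, 61.5% of passing genes in wild-type mice fell rather than 50.6%, and the direction of each of the 7 adipokines was the same under that scaling. Since whole tissue was read, fewer fat cells and less RNA per fat cell cannot be told apart for any value below.

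**Figure D1:**
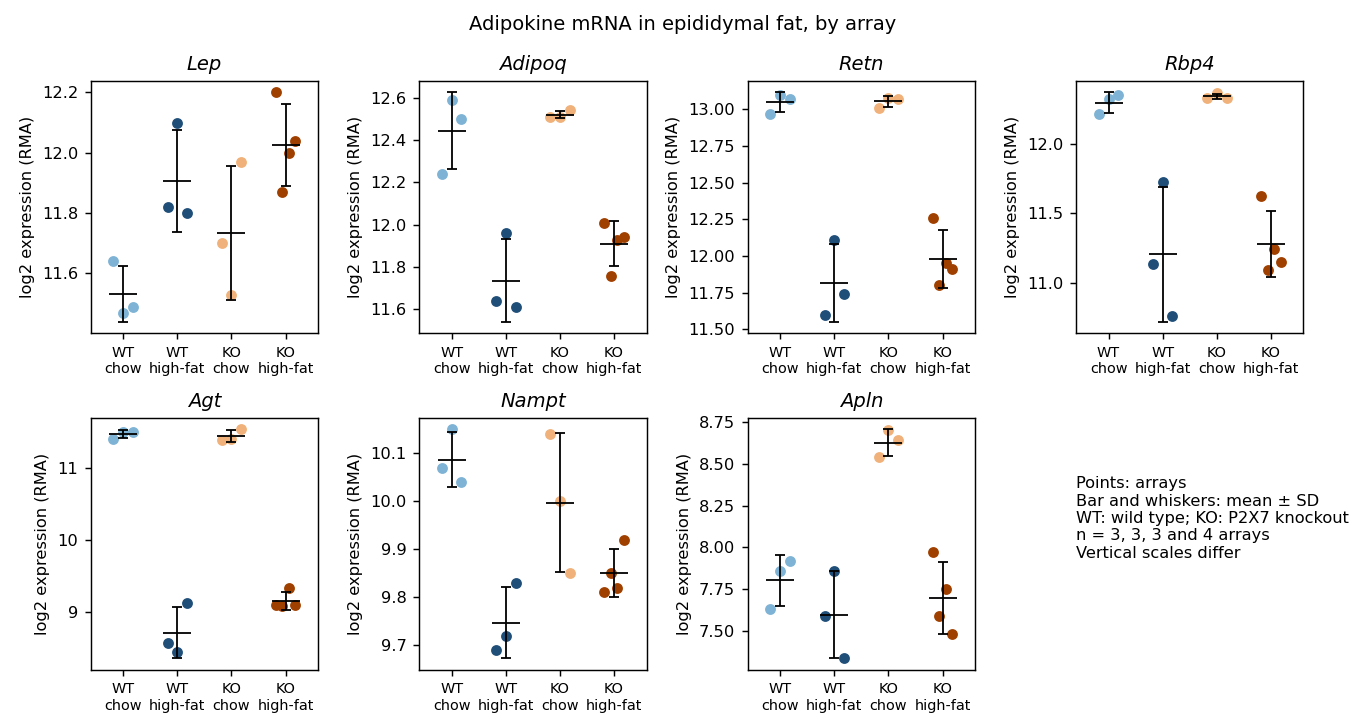
Log2 expression of the 7 measured adipokines (vertical axes, scales differ) in each array of the 4 groups, with the mean and SD as bar and whiskers. Adipoq, Retn, Rbp4 and Agt lie lower in every high-fat array than in any chow array, Lep lies higher on average, and Apln stands out in knockout chow arrays (8.54 to 8.70). Within a genotype, the diets were separate for 43.3% (wild-type) and 43% (knockout) of all genes.

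Lep was the only measured adipokine that rose. Its log2 values in wild-type mice were 11.64, 11.47 and 11.49 on chow and 11.82, 12.10 and 11.80 on high-fat diet. In knockout mice Lep read 11.70, 11.53 and 11.97 on chow and 12.20, 11.87, 12.00 and 12.04 on high-fat diet. The diets did not overlap in wild-type mice, whereas replicate 3 of knockout chow lay inside the high-fat range. The rise was 0.37 ± 0.11 (SE), or 1.29-fold, in wild-type mice (adjusted p by limma 0.0198) and 0.29 ± 0.11, or 1.23-fold, in knockout mice (adjusted p by limma 0.0471). Group means ran from 11.53 ± 0.09 (SD, n = 3) in wild-type chow through 11.73 ± 0.22 (SD, n = 3) in knockout chow and 11.91 ± 0.17 (SD, n = 3) in wild-type high-fat to 12.03 ± 0.14 (SD, n = 4) in knockout high-fat arrays, and neighbouring groups in this order overlapped. Both calls were weak. The Lep rise passed in 19 of 24 alternatives in wild-type mice (adjusted p 0.00725 to 0.635) and in 9 of 24 in knockout mice (0.0101 to 1.00). Without replicate 2 of wild-type high-fat mice it was 0.28 (adjusted p 0.0761), and without replicates 2 or 3 of wild-type chow it was 0.34 (adjusted p 0.0661) and 0.35 (adjusted p 0.0602). The knockout call was kept without replicate 3 of knockout chow (0.41) and lost without replicates 1 (0.28, adjusted p 0.124) or 2 (0.20, adjusted p 0.228) of that group, among others. With the liver markers as a covariate the wild-type rise was 0.57 ± 0.13 (adjusted p 0.00725).

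Adipoq, the gene of adiponectin, fell in both genotypes. In wild-type mice it read 12.24, 12.59 and 12.50 on chow and 11.64, 11.96 and 11.61 on high-fat diet. In knockout mice the Adipoq values were 12.51, 12.51 and 12.54 on chow and 12.01, 11.76, 11.93 and 11.94 on high-fat diet. Every high-fat array lay below every chow array. The fall was 1.64-fold in wild-type mice (log2 change -0.71 ± 0.10, adjusted p by limma 9.44e-05) and 1.53-fold in knockout mice (-0.62 ± 0.09, adjusted p by limma 2.11e-04). In group means, knockout chow (12.52 ± 0.02, SD, n = 3) and wild-type chow (12.44 ± 0.18, SD, n = 3) overlapped, as did knockout high-fat (11.91 ± 0.11, SD, n = 4) and wild-type high-fat mice (11.73 ± 0.20, SD, n = 3).

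Leptin and adiponectin mRNA therefore moved apart. A difference of the RMA values taken within each array shows this, and a constant shift of an array would not alter it. Relative to the mean of wild-type chow arrays, log2 Lep minus log2 Adipoq was -0.20 to 0.30 in wild-type and -0.07 to 0.33 in knockout mice on chow. On high-fat diet it was 1.10, 1.05 and 1.10 in wild-type and 1.11, 1.02, 0.98 and 1.02 in knockout mice. The 7 high-fat arrays were thus close together on this measure, although Lep alone and Adipoq alone spread more widely between them.

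Retn, which in mice is made chiefly by fat cells, fell further than Adipoq in each genotype. Wild-type values were 12.97, 13.10 and 13.07 on chow and 11.60, 12.11 and 11.74 on high-fat diet. Retn in knockout mice read 13.01, 13.08 and 13.07 on chow and 12.26, 11.80, 11.95 and 11.91 on high-fat diet. The chow arrays of both genotypes lay close together and far above all high-fat arrays. The log2 change was -1.23 ± 0.12, a 2.35-fold fall, in wild-type mice (adjusted p by limma 4.14e-06) and -1.07 ± 0.11, a 2.1-fold fall, in knockout mice (adjusted p by limma 9.92e-06).

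Rbp4, the carrier of retinol in blood, fell to a like extent but with more scatter. In wild-type mice the log2 values were 12.21, 12.32 and 12.35 on chow and 11.13, 11.72 and 10.76 on high-fat diet. Rbp4 in knockout mice read 12.33, 12.36 and 12.33 on chow and 11.62, 11.09, 11.24 and 11.15 on high-fat diet. The diets did not overlap, and the wild-type high-fat SD of 0.48 (n = 3) was the widest of any group among the 7 adipokines. The log2 change was -1.09 ± 0.19 in wild-type (adjusted p by limma 3.95e-04) and -1.07 ± 0.17 in knockout mice (adjusted p by limma 3.25e-04). Liver is a major source of Rbp4 and Agt. Of 16 liver markers 0 rose and 9 fell in wild-type mice, beside 17.7% and 18.1% of all genes. In knockout mice 1 of these markers rose and 2 fell, which is not above the 14.5% and 19.7% of all genes. With the mean of these markers as a covariate, Rbp4 changed by -0.65 ± 0.17 in wild-type mice (adjusted p by limma 0.0160) and by -0.99 ± 0.12 in knockout mice (adjusted p by limma 4.95e-05).

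Agt showed by far the largest change of the 7. Its log2 values in wild-type mice were 11.41, 11.50 and 11.50 on chow and 8.57, 8.45 and 9.12 on high-fat diet. In knockout mice Agt read 11.39, 11.40 and 11.54 on chow and 9.10, 9.08, 9.33 and 9.10 on high-fat diet. More than 2 log2 units separated the lowest chow array from the highest high-fat array. The change was -2.75 ± 0.13, a 6.75-fold fall, in wild-type mice (adjusted p by limma 3.18e-08) and -2.29 ± 0.12, a 4.88-fold fall, in knockout mice (adjusted p by limma 8.53e-08). Counted from the most negative change, Agt ranked 10 of 18820 genes in wild-type and 16 in knockout mice, and 0.0744% of all genes fell at least 6-fold in wild-type mice. With the liver covariate the Agt change was -3.05 ± 0.13 in wild-type and -2.34 ± 0.09 in knockout mice.

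Nampt changed little. It read 10.07, 10.15 and 10.04 on chow and 9.69, 9.72 and 9.83 on high-fat diet in wild-type mice. In knockout mice Nampt read 10.14, 10.00 and 9.85 on chow and 9.81, 9.85, 9.82 and 9.92 on high-fat diet. The diets were separate in wild-type mice and overlapped in knockout mice, where chow replicate 3 was low. The wild-type fall of 1.27-fold passed (-0.34 ± 0.07, adjusted p by limma 0.00216), and the knockout change of -0.15 ± 0.07 did not (adjusted p by limma 0.116). Without replicate 3 of knockout chow mice, Nampt changed by -0.22 in knockout mice and passed (adjusted p 0.0270). The diet-by-genotype interaction for Nampt was 0.19 ± 0.10 and did not pass (adjusted p by limma 0.549), so the genotypes were not shown to differ.

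Apln, the ligand of the receptor Aplnr, fell in knockout mice and did not pass in wild-type mice. In wild-type mice it read 7.63, 7.86 and 7.92 on chow and 7.59, 7.86 and 7.34 on high-fat diet. The knockout values of Apln were 8.54, 8.70 and 8.64 on chow and 7.97, 7.59, 7.75 and 7.48 on high-fat diet. Knockout chow arrays were thus apart from all others, and the remaining 3 groups overlapped. The log2 change was -0.21 ± 0.14 in wild-type mice (adjusted p by limma 0.292) and -0.93 ± 0.13, a 1.9-fold fall, in knockout mice (adjusted p by limma 1.01e-04). The interaction was -0.72 ± 0.19 (unadjusted p 0.00229, adjusted p by limma 0.320) and did not pass over all genes.

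**Figure D2:**
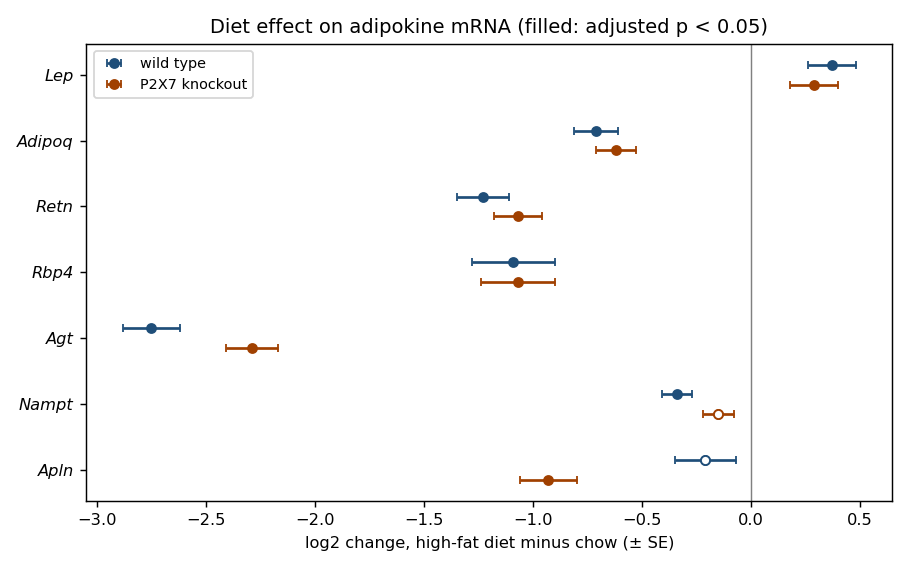
Log2 change with high-fat diet (horizontal axis, ± SE) for each measured adipokine in wild-type and P2X7 knockout mice, with filled points where limma's adjusted p is under 0.05. Agt changed most in both genotypes (-2.75 and -2.29), Lep alone lies above 0 (0.37 and 0.29), and the genotypes lie furthest apart for Apln (-0.21 and -0.93).

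The fall of the fat cell products was set beside general fat cell markers. Of 13 such markers 0 rose and 10 fell in wild-type mice, with a median log2 change of -0.69, and 0 rose and 9 fell in knockout mice, with a median of -0.51. The marker mean was 11.48 to 11.73 in wild-type chow, 11.58 to 11.63 in knockout chow, 10.70 to 11.16 in wild-type high-fat and 10.89 to 11.16 in knockout high-fat arrays. Macrophage markers went the other way: 9 of 10 rose and 1 fell in each genotype, and their mean was 8.70 to 9.26 on chow and 10.27 to 10.58 on high-fat diet. Among the 7 high-fat arrays, replicate 2 of wild-type and replicate 1 of knockout mice had the highest fat cell marker mean (11.16 in both) and the lowest macrophage marker mean (10.27 and 10.28). They also had the highest liver marker mean of that diet (6.74 and 5.94). Those same 2 arrays held the 2 highest Lep, Adipoq, Retn, Rbp4 and Apln values on that diet. Agt and Nampt did not share this order, and Agt read 8.45 on the first array, the lowest Agt value of all 13. Markers of mesothelial cells were lower on high-fat diet as well, and those of endothelial and smooth muscle cells in wild-type mice. Of 9 mesothelial markers 7 fell in wild-type and 9 in knockout mice, with medians of -1.14 and -1.15. Of 10 endothelial markers 6 and 2 fell (medians -0.42 and -0.17), and of 8 smooth muscle markers 6 and 2 fell (medians -0.77 and -0.24), and 0 rose in any of these lists. Over all genes 18.1% fell and 17.7% rose in wild-type mice, and 19.7% fell and 14.5% rose in knockout mice. The endothelial and smooth muscle counts in knockout mice are near that share of falls. Stromal markers were mixed, with 4 of 9 rising in each genotype and 2 and 1 falling, as were neutrophil markers, with 3 of 7 rising and 1 falling in each. What part the cell makeup has in the diet changes was not tested.

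**Figure D3:**
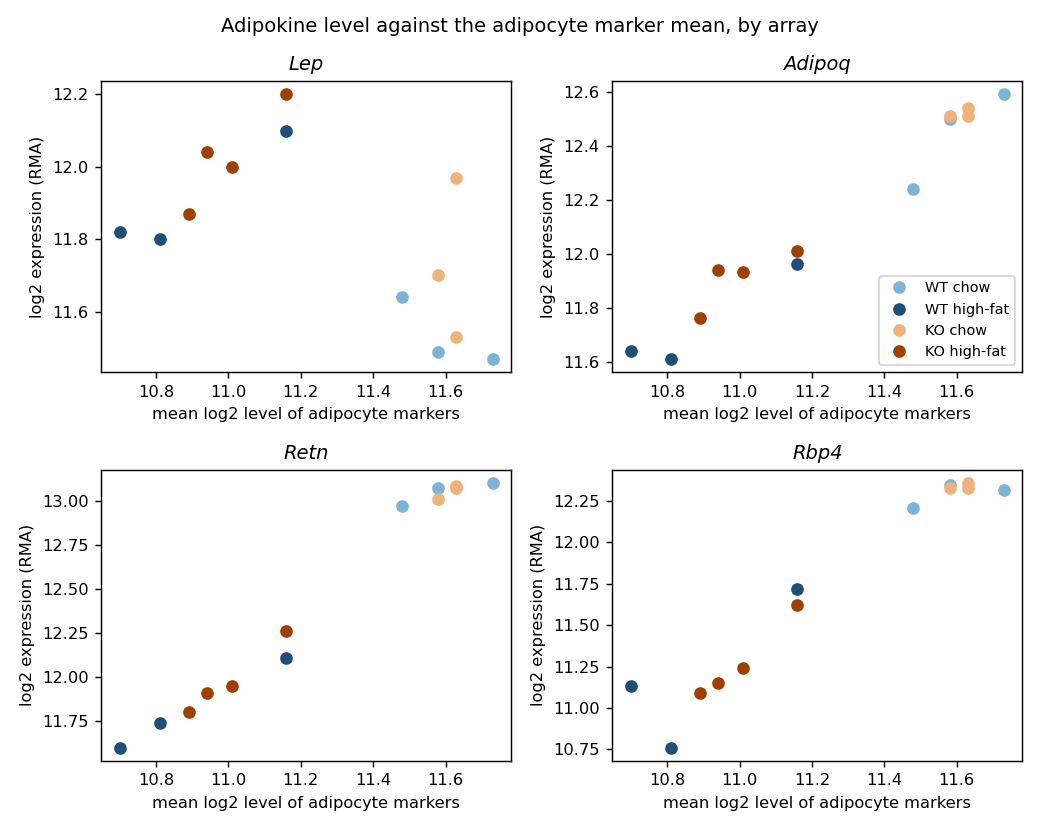
Log2 expression of Lep, Adipoq, Retn and Rbp4 (vertical axes) against the mean log2 level of 13 fat cell markers (horizontal axis), 1 point per array, coloured by group. Adipoq, Retn and Rbp4 are high where the markers are high, while Lep is lower in the chow arrays at the right (11.47 to 11.97) than in most high-fat arrays at the left (11.80 to 12.20).

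The comparison of genotypes asked whether loss of P2X7 altered adipokine mRNA. On chow, 1 of 7 adipokines passed, beside 0.133% of all genes (0.0478% higher and 0.085% lower in the knockout). On high-fat diet 0 of 7 passed, beside 0.0425% (0.0106% higher and 0.0319% lower). By limma at an unadjusted p under 0.05, 1 of 7 adipokines differed on high-fat diet, beside 7.41% of all genes. Averaged over the diets 0 of 7 passed (2 at an unadjusted p under 0.05, beside 7.23% of all genes), and 0.106% of all genes passed (0.0478% higher and 0.0584% lower).

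Apln was the adipokine that passed on chow, at 8.63 ± 0.08 (SD, n = 3) in knockout against 7.80 ± 0.15 (SD, n = 3) in wild-type mice. The difference was 0.83 ± 0.14 (95% interval 0.52 to 1.13), or 1.77-fold higher in the knockout (unadjusted p 5.10e-05, adjusted p by limma 0.0451). Each knockout chow array exceeded each wild-type chow array, which was also so, in either direction, for 14.9% of all genes. The call lay close to the threshold. Across 24 alternatives the Apln difference was 0.74 to 1.11 and its adjusted p 0.0188 to 0.608, and it passed in 8. It was lost without any 1 of the 6 chow arrays (0.74 to 0.89) and without replicate 1 of wild-type or replicates 2, 3 or 4 of knockout high-fat mice (0.83, adjusted p 0.0576 to 0.0767). It was also lost with arrays centred on their medians (0.78, adjusted p 0.0575) and with the replicate numbers as a block (0.83, adjusted p 0.124). The liver marker mean was 6.60 to 7.52 in wild-type against 5.50 to 5.62 in knockout chow arrays, without overlap. Of the 16 liver markers 0 passed for genotype on chow. With these markers as a covariate the Apln difference was 1.11 ± 0.20 (adjusted p by limma 0.136), an extrapolation as the ranges did not overlap. On high-fat diet Apln differed by 0.10 ± 0.13 (95% interval -0.18 to 0.39, adjusted p by limma 0.901), and averaged over the diets by 0.46 ± 0.10 (adjusted p by limma 0.143).

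For the other adipokines the genotype differences on chow did not pass. The 95% interval was -0.04 to 0.45 for Lep, -0.14 to 0.30 for Adipoq, -0.26 to 0.27 for Retn, -0.35 to 0.45 for Rbp4, -0.31 to 0.26 for Agt and -0.25 to 0.06 for Nampt. A difference of 2-fold in either direction, a log2 value of 1, lay outside each of these intervals, which hold for the fit without the liver markers. With those markers as a covariate the chow differences were larger for several of them, though none passed: 0.63 ± 0.20 for Rbp4 (adjusted p by limma 0.389), 0.46 ± 0.15 for Lep (0.393), -0.42 ± 0.15 for Agt (0.419) and 0.29 ± 0.16 for Retn (0.576). The liver marker means did not overlap between wild-type (6.60 to 7.52) and knockout (5.50 to 5.62) chow arrays, so these values are extrapolations. On high-fat diet the intervals were -0.11 to 0.35 for Lep, -0.03 to 0.38 for Adipoq, -0.08 to 0.41 for Retn, -0.30 to 0.45 for Rbp4 and -0.04 to 0.25 for Nampt.

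Agt had the largest genotype difference on high-fat diet. Its mean was 9.15 ± 0.12 (SD, n = 4) in knockout and 8.71 ± 0.36 (SD, n = 3) in wild-type mice, a difference of 0.44 ± 0.12 (95% interval 0.17 to 0.71). It did not pass (unadjusted p 0.00374, adjusted p by limma 0.551), and replicate 3 of wild-type mice, at 9.12, lay inside the knockout range. Without that array the Agt difference was 0.64 and passed (adjusted p 0.0128), and with the liver covariate it was 0.29 (adjusted p 0.366). The interaction for Agt was 0.47 ± 0.18 (adjusted p by limma 0.450). No adipokine passed for the interaction, nor did any gene over the whole array (0 of 18820 by limma, 1829 at an unadjusted p under 0.05, and 106 without replicate 2 of wild-type high-fat mice).

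**Figure D4:**
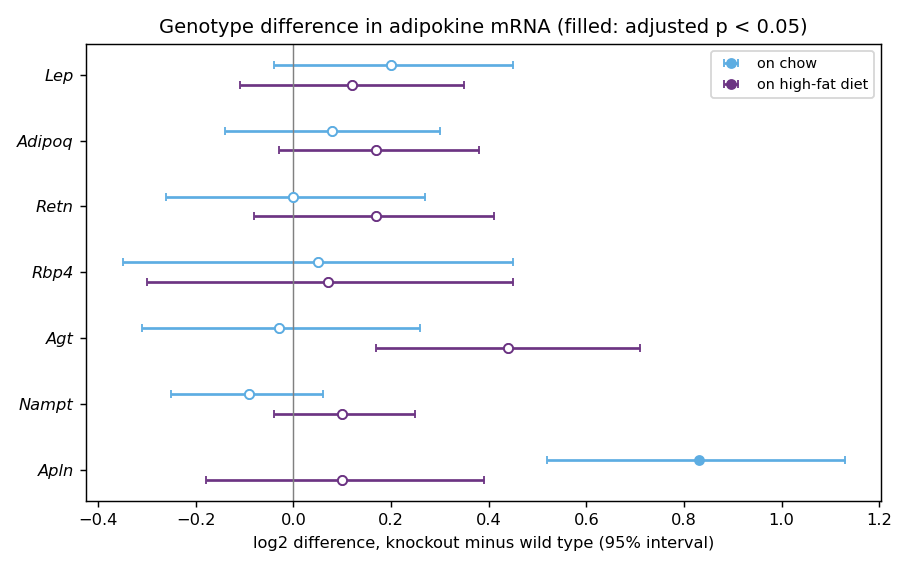
Log2 difference between P2X7 knockout and wild-type mice (horizontal axis, with 95% interval) for each measured adipokine on chow and on high-fat diet, filled where limma's adjusted p is under 0.05. Apln on chow (0.83) is the 1 filled point, and the interval of Agt on high-fat diet (0.17 to 0.71) lies above 0 without passing the adjusted threshold.

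Genes whose profile was most like that of each adipokine were found as those with the smallest root mean square difference between centred log2 values over the 13 arrays, among 16454 genes with a regular name. For Adipoq these were Eif2b3 (0.062), Pcca (0.071), a subunit of propionyl-CoA carboxylase, and Pnpla2 (0.074), the main triglyceride lipase of fat. Retn was closest to Adhfe1 (0.054), Ctdspl (0.060) and Pccb (0.074), the other subunit of propionyl-CoA carboxylase. Rbp4 was closest to Fgfrl1 (0.081), Bmp6 (0.092) and Pakap (0.106), and Nampt to Cd302 (0.058), Gpbp1l1 (0.060) and Phka1 (0.069). These distances are small beside the adipokines' own ranges over the arrays, 0.98 for Adipoq, 1.59 for Rbp4 and 0.46 for Nampt. The nearest genes to Lep, whose range was 0.73, were Nln (0.091), the peptidase neurolysin, Jpt2 (0.094) and Gsto1 (0.103). Agt, with a range of 3.09, was nearest to Ankef1 (0.260), Timp4 (0.278), a metalloprotease inhibitor, and the chemokine Ccl17 (0.282). Such distances grow with the range of a gene, so they are not compared between adipokines. Apln, with a range of 1.36, was nearest to Hspb1 (0.171), a small heat shock protein, Ackr3 (0.178), a scavenging chemokine receptor, and Cfap126 (0.196). The arrays share the diet contrast, so these lists mostly describe genes with a like diet change.

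Receptors of the adipokines were looked at in the same fit, since fat is also a target of its own hormones. Of 13 measured receptor genes 2 rose and 6 fell in wild-type mice, and 3 rose and 5 fell in knockout mice. Over all genes 17.7% rose and 18.1% fell in wild-type and 14.5% rose and 19.7% fell in knockout mice, which is the background for each list that follows. The median change of the receptors was -0.36 and -0.11, beside -0.03 and -0.06 over all genes. For genotype 0 of 13 passed on either diet. Among the adiponectin receptors Adipor2 fell by 0.68 ± 0.13 in wild-type and by 0.55 ± 0.12 in knockout mice. Adipor1 changed by -0.08 ± 0.05 (adjusted p by limma 0.247) and fell by 0.17 ± 0.05 (adjusted p by limma 0.0121), in the same order of genotypes, the latter lost without replicate 3 of knockout chow (-0.14, adjusted p 0.0634). Cdh13, T-cadherin, which binds adiponectin on vessel cells, fell by 0.79 ± 0.16 in wild-type mice, whereas the knockout value of -0.33 ± 0.15 did not pass (adjusted p by limma 0.111). With the liver covariate the wild-type value of Cdh13 was -0.44 (adjusted p 0.0714), and the knockout value passed without replicate 1 of knockout high-fat (-0.42, adjusted p 0.0455) or replicate 2 of wild-type high-fat mice (-0.33, adjusted p 0.0241). Cap1, a proposed resistin receptor, rose by 0.63 ± 0.06 and 0.42 ± 0.06, while its ligand's gene fell.

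Lepr, the leptin receptor gene, did not pass in either genotype (-0.14 ± 0.10, adjusted p by limma 0.334, and 0.13 ± 0.10, adjusted p by limma 0.333). Stra6, a receptor for Rbp4, changed by -0.36 ± 0.16 in wild-type mice (adjusted p by limma 0.107) and fell by 0.42 ± 0.15 in knockout mice (adjusted p by limma 0.0439). Group means of Lepr (5.29 to 5.46) and Stra6 (5.10 to 5.58) lay below the array medians over genes (6.56 to 6.69). Leaving out any of 7 single arrays ended that knockout call of Stra6 (-0.38 to -0.43), and leaving out replicate 2 of either wild-type group made the wild-type one (-0.48 and -0.47). Aplnr, the apelin receptor, read 8.43 to 9.11 on chow and 8.92 to 9.61 on high-fat diet in wild-type mice, and 7.81 to 8.71 and 9.44 to 9.69 in knockout mice. It rose by 1.22 ± 0.22 in knockout mice (adjusted p by limma 7.89e-04), where Apln fell, and its wild-type change was 0.60 ± 0.24 (adjusted p by limma 0.0633). The wild-type change of Aplnr passed without replicate 1 of wild-type chow (0.80, adjusted p 0.0237), of wild-type high-fat (0.80, adjusted p 0.0233) or of knockout chow mice (0.60, adjusted p 0.0205). The interaction for Aplnr did not pass (0.61 ± 0.32, adjusted p by limma 0.564). Of the chemerin receptors Cmklr1 fell by 0.61 ± 0.10 and 0.69 ± 0.10, Ccrl2 rose by 1.03 ± 0.12 and 0.70 ± 0.11, and Gpr1 fell by 0.40 ± 0.08 in wild-type mice, with a knockout value of 0.07 ± 0.08 (adjusted p by limma 0.559). The interaction for Gpr1 was 0.47 ± 0.11 and did not pass (adjusted p by limma 0.320), and 0 of 13 receptors passed for it. Insr, the insulin receptor, fell by 0.90 ± 0.11 and 0.67 ± 0.11.

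**Figure D5:**
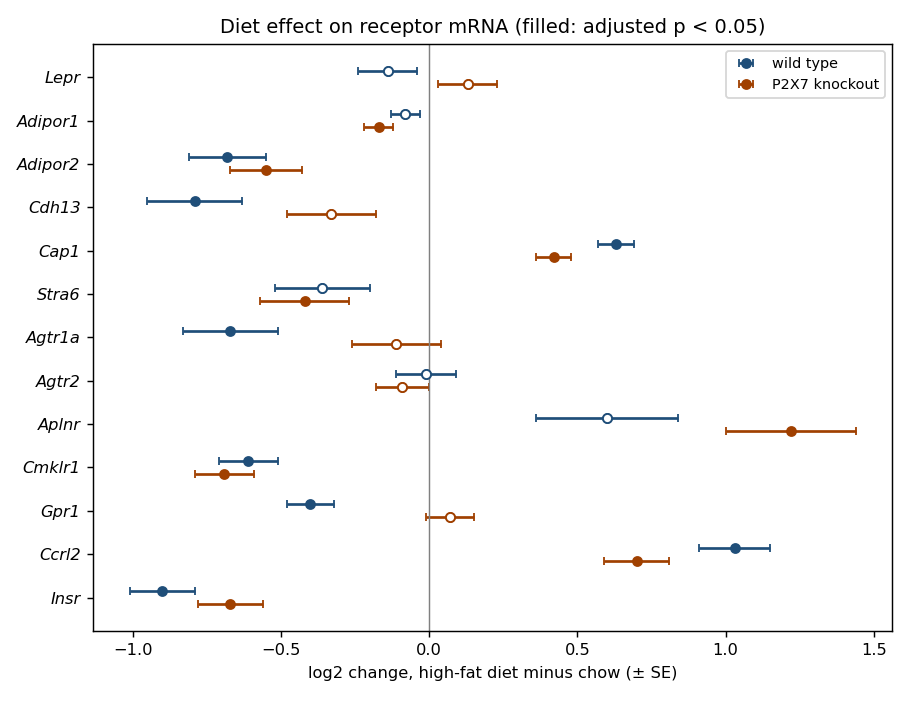
Log2 change with high-fat diet (horizontal axis, ± SE) of 13 receptor genes in wild-type and P2X7 knockout mice, filled where limma's adjusted p is under 0.05. Cap1 and Ccrl2 lie above 0 in both genotypes, Adipor2, Cmklr1 and Insr below it, and Aplnr reaches 1.22 in knockout mice.

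Beside the steep fall of Agt, the rest of the renin-angiotensin system was mixed. Of 9 measured genes 3 rose and 2 fell in wild-type mice, and 3 rose and 1 fell in knockout mice, with medians of -0.01 and 0.03. Anpep, aminopeptidase N, which trims angiotensin peptides and is also a myeloid surface protein, rose by 2.28 ± 0.14 and 1.94 ± 0.13. Atp6ap2, the prorenin receptor, rose by 0.71 ± 0.15 and 0.79 ± 0.14. Enpep, aminopeptidase A, fell by 1.10 ± 0.23 and 0.83 ± 0.21. Agtr1a, the main angiotensin receptor, fell by 0.67 ± 0.16 in wild-type mice and was -0.11 ± 0.15 in knockout mice (adjusted p by limma 0.613). The wild-type value was -0.50 with the liver covariate (adjusted p 0.114), and Atp6ap2 in wild-type mice was 0.38 (adjusted p 0.107). Agtr2 was -0.01 ± 0.10 and -0.09 ± 0.09 and did not pass (adjusted p by limma 0.935 and 0.465). Its group means of 3.36 to 3.45 lay far below the array medians over genes (6.56 to 6.69).

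Cfd would have stood at the head of the alternative complement pathway, and 10 other genes of that pathway and its receptors were measured. Of these 7 rose and 1 fell in each genotype, with a median of 0.78 in wild-type and 1.22 in knockout mice. The receptors for C3a and C5a and the integrin chains found on myeloid cells rose, as did the macrophage markers above. C3ar1 rose by 2.41 ± 0.13 and 2.00 ± 0.12, C5ar1 by 2.36 ± 0.14 and 1.81 ± 0.13, and the integrin chain Itgb2 by 2.44 ± 0.22 and 1.60 ± 0.20. Itgam, the partner chain of Itgb2, rose by 1.58 ± 0.22 and 1.28 ± 0.20.

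Around Nampt, 12 genes of NAD synthesis and use were measured, of which 2 rose and 4 fell in wild-type and 2 rose and 5 fell in knockout mice, with medians of -0.14 and -0.20. Nadk, NAD kinase, fell by 0.31 ± 0.05 and 0.33 ± 0.05, and the mitochondrial deacetylase Sirt3 by 0.42 ± 0.08 and 0.50 ± 0.08. Qprt, of the route from tryptophan, rose by 0.78 ± 0.17 and 1.07 ± 0.16, and Parp1, which consumes NAD in DNA repair, rose by 0.44 ± 0.07 and 0.35 ± 0.07. Qprt in wild-type mice was 0.66 with the liver covariate (adjusted p 0.0550).

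Around Rbp4, 15 genes of retinoid transport and action were measured, of which 0 rose and 5 fell in wild-type and 1 rose and 5 fell in knockout mice, with medians of -0.20 and -0.16. Both directions together, these counts are close to the 35.8% and 34.2% of all genes that passed. By direction, 5 of 15 fell in each genotype, beside 18.1% and 19.7% of all genes. Whether the list departs from all genes was not tested. The retinoid receptors Rarg (-0.78 ± 0.07 and -0.67 ± 0.07) and Rxra (-0.61 ± 0.10 and -0.69 ± 0.09) fell. Aldh1a1, which makes retinoic acid, fell by 1.08 ± 0.13 and 1.00 ± 0.13, and Rdh10 by 0.47 ± 0.08 and 0.29 ± 0.08. Ttr, which carries Rbp4 in blood and is also a liver marker here, did not pass (-1.14 ± 0.46, adjusted p by limma 0.0709, and -0.01 ± 0.43, adjusted p by limma 0.990).

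Of 25 other secreted factors, 5 rose and 10 fell in wild-type mice and 5 rose and 8 fell in knockout mice, with medians of -0.28 and -0.09. Nrg4, a neuregulin released by fat, fell by 2.16 ± 0.20 and 1.56 ± 0.19, and Bmp4 fell by 1.37 ± 0.13 and 0.82 ± 0.12. Metrnl rose by 1.57 ± 0.12 and 0.96 ± 0.11, and Grn, progranulin, by 0.84 ± 0.07 and 0.73 ± 0.07. In the resistin family Retnla, a marker of alternatively activated macrophages, fell by 1.52 ± 0.30 and 1.46 ± 0.28, and Retnlg, also a neutrophil gene, fell by 1.65 ± 0.31 and 1.23 ± 0.29, so both went down with Retn. Retnla in wild-type mice was -1.06 with the liver covariate (adjusted p 0.0521). Retnlb, at low group means of 3.01 to 3.19, did not pass (0.14 ± 0.15, adjusted p by limma 0.540, and -0.05 ± 0.14, adjusted p by limma 0.812). These are close relatives of Retn, and whether probe sets read more than 1 of them was not tested.

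The C1q/TNF-related proteins share adiponectin's globular domain. C1qtnf12 fell by 0.73 ± 0.11 in wild-type and 0.65 ± 0.10 in knockout mice, and C1qtnf1 by 0.36 ± 0.12 and 0.43 ± 0.12. C1qtnf6 rose by 0.75 ± 0.09 and 0.83 ± 0.08. In wild-type mice C1qtnf2 fell by 0.39 ± 0.13 and C1qtnf9 by 0.46 ± 0.15, while the knockout values were 0.01 ± 0.12 and -0.36 ± 0.14 (adjusted p by limma 0.0593) and did not pass. These wild-type calls were weak. With the liver covariate all of C1qtnf1 (-0.28 ± 0.17, adjusted p 0.277), C1qtnf2 (-0.33 ± 0.17, adjusted p 0.216) and C1qtnf9 (-0.24 ± 0.18, adjusted p 0.413) did not pass, each with a larger SE. C1qtnf1 lost its call without replicate 3 of wild-type chow (-0.25) or replicates 1 (-0.36) or 3 (-0.29) of wild-type high-fat mice, and its knockout call without replicate 3 of knockout chow (-0.34). C1qtnf2 lost it without replicates 1 (-0.37) or 3 (-0.30) of wild-type chow or replicates 1 (-0.41) or 3 (-0.33) of wild-type high-fat mice. C1qtnf9 lost it without replicates 1 (-0.41) or 2 (-0.48) of wild-type chow or replicate 1 of wild-type high-fat mice (-0.26), and its knockout value passed without replicates 1 or 2 of wild-type high-fat (both -0.36) or replicate 1 of knockout high-fat mice (-0.44). C1qtnf3, C1qtnf4 and C1qtnf7 passed in neither genotype, with values from -0.30 to 0.08. C1qtnf3 passed in knockout mice without replicate 4 of knockout high-fat (-0.45, adjusted p 0.0248), and C1qtnf7 in wild-type mice without replicate 2 of wild-type chow (-0.38, adjusted p 0.0222).

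Adiponectin leaves the cell as large multimers after chaperones and hydroxylases have acted on it, and 6 genes for that step were measured, of which 3 rose and 1 fell in wild-type and 1 rose and 1 fell in knockout mice. Gstk1, also known as DsbA-L, which aids multimer assembly, fell by 0.91 ± 0.15 and 0.88 ± 0.14 along with Adipoq. Plod1, a lysyl hydroxylase, rose by 0.46 ± 0.07 and 0.41 ± 0.07. In wild-type mice P4ha1 rose by 0.43 ± 0.12 and Plod3 by 0.23 ± 0.07, both without passing in knockout mice (0.01 ± 0.12, adjusted p by limma 0.978, and 0.01 ± 0.07, adjusted p by limma 0.915). Neither kept its wild-type call without replicate 1 of wild-type high-fat mice (0.31 for P4ha1 and 0.20 for Plod3), nor did Plod3 without replicate 3 of that group (0.24) or replicate 1 of wild-type chow (0.17). Both wild-type calls also ended with the liver covariate (0.33 ± 0.17, adjusted p 0.193, and 0.22 ± 0.10, adjusted p 0.161). The SE of each was larger than without it, and the value of Plod3 hardly moved.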

How the data were processed

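Total RNA (100 ng per array) of 13 fat samples was measured on Affymetrix arrays. Per the submitters' processing notes the authors used RMA, and what they deposited is 1 log2 value for each probe set and array. No version of RMA is given in the sources used here. Of 35556 probe sets, 21218 named 1 gene, 1881 several and 12457 none, and the probe set with the highest mean stood for each of 18820 genes, of which 18790 matched RefSeq by Entrez ID. A group-means model was fitted to all genes and arrays with limma 3.58.1 in R 4.3.3, with an intensity trend, and p-values were adjusted by Benjamini-Hochberg over all genes of a comparison (threshold 0.05). The members and gene lists were chosen with earlier results of these data known. Named genes were all 9 adipokines, the 3 nearest profiles of each, up to 4 passing genes per list, all receptors, and relatives of Retn and Adipoq. Changes named as fallen or risen without a p passed. Where 2 values follow each other, the first is wild-type and the second knockout. The model was run on simulated arrays with independent genes, few of them changed, for diet and for genotype on high-fat diet. Genotype on chow and the interaction were not simulated. List symbols were matched directly, 1 by a synonym. The number of arrays limits precision. Figures used Python 3.11.15, matplotlib 3.10.9, numpy 2.4.6 and pandas 2.3.3. Alternatives changed variance model, scaling, dim-gene filter, probe sets per gene, array weights, groups fitted, minimum fold, replicate block and liver covariate, and left out each array.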

Additional observations from a re-analysis of the deposited data

Results flagged for a closer look

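In the group of 4 knockout high-fat arrays, 6 of 54 genes checked had 1 array far from the other 3, by Dixon's 95% critical value, which flags about 1 in 20 groups by chance. The genes share the same 4 arrays and are not independent, so the count is a description. Agt read 9.33 on replicate 3, with the other 3 at 9.08 to 9.10. C3ar1 read 11.86 on replicate 1 (highest 12.07), and Cdh13 read 9.26 on the same array (lowest 8.86). On replicate 4 Plod3 read 9.93 (highest 10.17), C1qtnf4 read 5.07 (lowest 4.71) and C1qtnf6 read 7.03 (highest 7.23).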

How the results depend on the processing

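Adipoq, Retn, Agt and Rbp4 fell in both genotypes, and Apln fell in knockout mice, in all 24 alternatives. Signal over background was not analysed, and the 3 or 4 arrays of a group limit precision. The cause of the shifts below was not tested.

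Replicate numbers did not pair arrays: same-numbered arrays of different groups correlated at -0.298 to 0.222 in their deviations (18 pairs, median 0.0183), and 4 of 13 arrays correlated best with their own number. With the replicate block 0 adipokines passed for genotype on chow, and the genes that passed were 6 on chow, 0 on high-fat diet and 6 averaged over diets, against 25, 8 and 20 without it. The block also turned Nampt averaged over diets to -0.01, P4ha1 in knockout mice to -0.03 and C1qtnf2 in knockout mice to -0.03.

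For genotype on chow, 0 adipokines rather than 1 passed without the intensity trend, with either scaling, with the liver covariate and with a minimum fold of 1.2, and 0 to 1 when single arrays were left out. On high-fat diet and averaged over diets 0 to 1 passed when arrays were left out, and 1 passed averaged over diets with array weights. Leaving out arrays gave 2 to 44 genes for genotype on chow, 6 to 177 on high-fat diet, 11 to 62 averaged and 0 to 106 for the interaction, the upper ends all without replicate 2 of wild-type high-fat mice. The interaction had 2 genes without the trend and 1 with array weights.

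With the liver covariate 4274 genes passed for diet in wild-type mice (6736 without it), 4 for genotype on chow and 13 on high-fat diet. With a minimum fold of 1.2 the genes were 2995 for diet in wild-type, 2450 in knockout (6429 without it), and 2 for each of genotype on chow, on high-fat diet and averaged. Genotype on high-fat diet had 5 genes above the median level and 2 with only the groups compared, and array weights gave 32 averaged over diets.

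Of the gene lists, with the minimum fold, 4 receptors passed for diet in knockout mice, 2 renin-angiotensin genes in knockout mice, 2 NAD genes in each genotype, 3 retinoid genes in each, 8 other secreted factors in wild-type mice, and 2 assembly genes in wild-type and 1 in knockout mice. With the liver covariate 2 renin-angiotensin, 8 secreted and 2 assembly genes passed in wild-type mice. Only the groups compared gave 9 secreted factors in wild-type mice. Above the median level 2 NAD genes passed in wild-type and 3 in knockout mice. Leaving out arrays gave 2 to 5 assembly genes in wild-type mice.

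None of the values that changed sign had passed. With the liver covariate Apln for diet in wild-type mice was 0.01, Agt averaged over diets -0.06, Nampt averaged -0.04, the interaction -0.02 for Retn and -0.34 for Rbp4, and P4ha1 in knockout mice -0.01. With arrays centred on medians Retn for genotype on chow was -0.04, Nampt averaged -0.02, and for diet in knockout mice P4ha1 was -0.03, Plod3 -0.02 and C1qtnf2 -0.03. A second quantile normalization gave -0.02 for Retn on chow, -0.00 for Nampt averaged, 0.01 for Agtr2 in wild-type and -0.02 for C1qtnf2 in knockout mice. Array weights gave -0.01 for each of Retn on chow, Nampt averaged and C1qtnf2 in knockout mice.

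With single arrays left out, diet in wild-type mice ranged from -0.34 to -0.08 for Apln, -0.07 to 0.05 for Agtr2 and -0.11 to 0.30 for Retnlb. Diet in knockout mice ranged from -0.17 to 0.00 for Agtr1a, -0.13 to 0.13 for P4ha1, -0.01 to 0.07 for Plod3, -0.13 to 0.11 for C1qtnf2 and -0.18 to 0.02 for C1qtnf4. Genotype on chow ranged from -0.02 to 0.15 for Adipoq and -0.03 to 0.03 for Retn, and on high-fat diet from -0.02 to 0.23 for Apln and -0.15 to 0.33 for Rbp4. Averaged over diets it ranged from -0.05 to 0.19 for Rbp4 and -0.03 to 0.04 for Nampt, and the interaction from -0.18 to 0.04 for Lep and -0.19 to 0.28 for Rbp4.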
